A study of Mus musculus with 9 samples.

Results

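The 10 genes described here were the 5 lysyl oxidases Lox, Loxl1, Loxl2, Loxl3 and Loxl4, with the secreted matrix proteins Sparc, Thbs1, Thbs2, Postn and Fn1. They were chosen by gene symbol, as 10 of the 55385 genes in the deposited table. Their RNA was measured in 9 libraries of MCP5, a mouse podocyte line with a wild-type genotype. Of these, 3 libraries came from cells given advanced glycation end products (AGEs, 400 µg/mL, proteins modified by sugars), 3 from cells given high glucose (50 mmol/L) and 3 from untreated control cells. The labels give no treatment time, osmotic control or carrier protein control, and they do not state separate cultures. The spread that the p-values rest on is therefore that of these libraries alone and may be technical.

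Lysyl oxidases are secreted, copper-dependent enzymes that oxidise lysine residues in collagen and elastin, the first step in cross-linking those fibres. Loxl2, Loxl3 and Loxl4 also carry scavenger receptor cysteine-rich domains, and LOXL2 is known to cross-link the type IV collagen of basement membranes. Matricellular proteins such as SPARC, the thrombospondins and periostin are secreted into the matrix but mainly adjust how cells attach to it and respond to growth factors. Podocytes, the epithelial cells around the capillaries of the kidney filter, produce part of the glomerular basement membrane, and added matrix is a known feature of diabetic kidney disease.

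The promoters of Loxl4 and Sparc are shown because, of the 4 members with a promoter window, these 2 were called in high glucose, Loxl4 lower and Sparc higher. Each is the RefSeq window on GRCm38.p6 from 250 bases before to 50 bases after a gene start, written along the transcribed strand. The Loxl4 window is chr19:42612757-42613056, minus strand, and its capitals mark the GC box letters GGGCGG. The Sparc window is chr11:55420031-55420330, minus strand, and its capitals mark the SMAD element letters CAGAC, found here on the reverse strand as GTCTG. The RefSeq start of Sparc lies inside the longer gene span of the deposited table.
Loxl4: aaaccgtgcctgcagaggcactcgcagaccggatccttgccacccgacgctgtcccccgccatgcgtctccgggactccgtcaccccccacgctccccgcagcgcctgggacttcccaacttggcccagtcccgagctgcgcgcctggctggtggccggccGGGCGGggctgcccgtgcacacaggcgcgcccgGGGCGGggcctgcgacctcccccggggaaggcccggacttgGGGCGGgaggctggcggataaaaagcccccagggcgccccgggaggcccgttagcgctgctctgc
Sparc: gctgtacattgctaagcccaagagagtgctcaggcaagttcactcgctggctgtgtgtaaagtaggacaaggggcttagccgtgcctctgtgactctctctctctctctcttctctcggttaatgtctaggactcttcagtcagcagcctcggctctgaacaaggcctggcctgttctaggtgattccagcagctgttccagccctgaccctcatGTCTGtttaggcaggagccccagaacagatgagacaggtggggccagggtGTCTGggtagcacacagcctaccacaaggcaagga
The Loxl4 window held GGGCGG 3 times, beginning 89, 56 and 15 bases before the start, and had a GC content of 75.0%. The Sparc window held no GGGCGG and had a GC content of 55.3%, close to the median of 52.7% over the 32851 promoters of the table. GGGCGG, searched on both strands, was present in 35.7% of all promoters of that length. CAGAC occurred 2 times in the Sparc window and once in the Loxl4 window, and in 49.6% of all promoters. The TATA box TATAAA (13.6% of all promoters), the CCAAT box CCAAT (37.4%), the hypoxia response core ACGTG (19.6%), the AP-1 element TGANTCA (7.81%) and the CHOP-ATF4 element TGATGNAA (3.97%) matched neither window. The motifs do not contain one another. RefSeq windows were matched for 4 of the 10 members, the other two being Thbs2 and Postn.

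Total counts ranged from 46284878 to 77242281 per library. On principal components, the high glucose libraries stood apart from the AGEs and control libraries on the first component (41.0% of the variance), and AGEs library 3 stood apart on the second (11.9%). Of 10 podocyte markers 8 passed the filter on low counts. Wt1, a defining podocyte transcription factor gene, was at 0 apart from 11 counts in high glucose library 2, so this marker was nearly absent. The 8 markers tested gave 2 calls, both higher, in high glucose against control and 0 in AGEs against control (2 at an unadjusted p under 0.05). Over all genes tested, 39.3% were called in high glucose against control and 0.0848% in AGEs against control (12.4% at an unadjusted p under 0.05). Summed podocyte markers were 1077 to 1134 CPM (reads of a gene scaled to a common library size) in AGEs, 869 to 938 in high glucose and 723 to 1029.8 in control.

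Levels are given as FPKM, which divides reads by gene length and library size, so that genes can be compared with each other. Tests used counts with edgeR's quasi-likelihood method, and a call means an adjusted p under 0.05 over 17680 genes (Benjamini-Hochberg). Fold changes come from those scaled counts and are somewhat smaller for rises in high glucose than ratios of FPKM. In control cells Fn1 was the most abundant member at 54.6 ± 6.47 FPKM, followed by Sparc (34.6 ± 2.58), Loxl4 (31.4 ± 1.56), Loxl2 (21.2 ± 0.884), Thbs1 (11.1 ± 0.413) and Loxl1 (5.75 ± 0.497; mean ± SD, n = 3). No neighbours in that order overlapped. Loxl3 and Lox were far lower, at 0.276 ± 0.0456 and 0.245 ± 0.0444 FPKM, and these values overlapped. Postn was close to absent at 0.0136 ± 0.00399 FPKM, and Thbs2 had no counts in control.

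**Figure D1:**
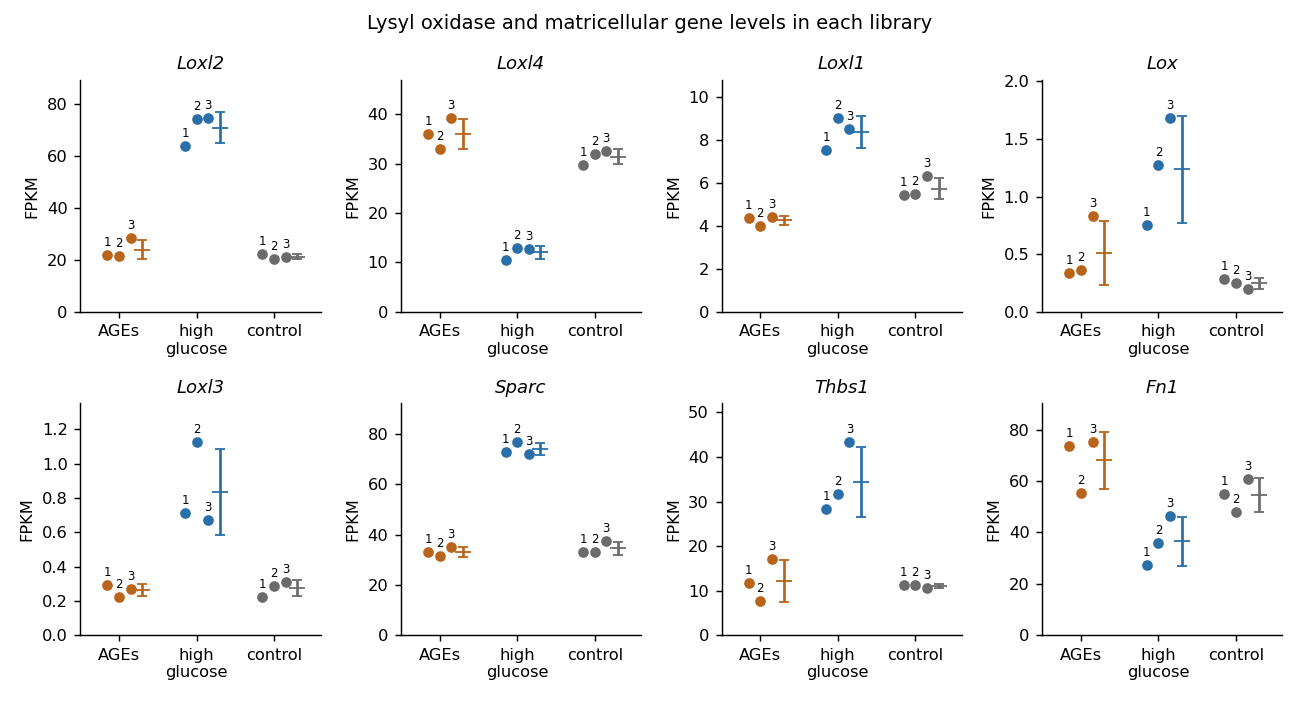
FPKM of 8 members in each library, with a panel per gene and a y axis from 0. Points are libraries numbered as in the labels, and the bar beside them is the mean ± SD (n = 3). Loxl2 and Sparc stand well above AGEs and control in all 3 high glucose libraries, and Loxl4 stands below them.

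To ask how high glucose altered these genes, its 3 libraries were compared with control. Transcripts of Loxl2, Lox, Loxl3, Loxl1, Sparc and Thbs1 rose, while those of Loxl4 and Fn1 fell. Of the 9 members that passed the filter on low counts, 6 were called higher and 2 lower, and Postn was not called. Over all genes tested 39.3% were called, 19.6% higher and 19.7% lower. The groups of FPKM values did not overlap for any of the 8 called members, as for 54.8% of all genes tested. Thbs2 did not pass the filter. In bulk RNA, fewer cells of a type and less RNA per cell cannot be told apart.

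Loxl2, which acts on basement membrane collagen and lies at chr14:69609068-69695834 (GRCm38, plus strand), rose in high glucose. It had 64.1, 74.2 and 74.5 FPKM in high glucose libraries 1 to 3, against 22.2, 20.4 and 21.0 FPKM in control libraries. The lowest high glucose library was far above the highest control library. The difference was 2.96-fold (log2 fold change 1.57, SE 0.12, adjusted p = 1.41e-05). An antisense gene, Gm27177, shares 301 exon bases with Loxl2 and had 239 counts in high glucose and 144 in control, against 82981 and 25415 for Loxl2.

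Loxl4, a related enzyme with the same domain layout (chr19:42593982-42612813, minus strand), moved the other way. Its levels were 10.6, 13.0 and 12.7 FPKM in high glucose, against 29.6, 32.0 and 32.6 FPKM in control. All high glucose libraries were below all control libraries. The difference amounted to 2.94-fold, with a log2 fold change of −1.56 (SE 0.10) and an adjusted p of 5.64e-06.

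Loxl1, an enzyme known for its role in maintaining elastic fibres (chr9:58287738-58313186, minus strand), showed a small rise. It had 7.56, 9.02 and 8.53 FPKM in high glucose, against 5.44, 5.48 and 6.32 FPKM in control. The groups did not overlap, and the difference was 1.29-fold (log2 fold change 0.37, SE 0.11, adjusted p = 0.0227). This call was lost without control library 1 (adjusted p = 0.0827), control library 2 (0.0749), high glucose library 2 (0.0851) or high glucose library 3 (0.0607).

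Lox itself, the founding enzyme of the family (chr18:52516067-52529867, minus strand), was scarce but rose 4.41-fold. It was at 0.752, 1.28 and 1.68 FPKM in high glucose, against 0.285, 0.253 and 0.197 FPKM in control. High glucose library 3 was more than double library 1, so the size of the rise varied between libraries although the groups did not overlap. The log2 fold change was 2.14 (SE 0.42, adjusted p = 0.00285), on 1271 counts in high glucose and 263 in control.

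Loxl3, another member with scavenger receptor domains (chr6:83034173-83052562, plus strand), had 0.710, 1.13 and 0.672 FPKM in high glucose, against 0.225, 0.290 and 0.313 FPKM in control. Library 2 was the highest of the high glucose libraries, and the groups did not overlap. Loxl3 was 2.67-fold higher (log2 fold change 1.42, SE 0.26, adjusted p = 0.00202). Htra2, a mitochondrial protease gene on the opposite strand, shares 535 exon bases with Loxl3 and is more abundant. Its reads could be counted to either gene because the strand setting is not given in the sources used here. Htra2 was at 23.2 ± 2.53 CPM in high glucose and 45.9 ± 4.52 CPM in control, so it moved opposite to Loxl3 (log2 fold change −0.99, adjusted p = 0.000633).

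Because Loxl2 and Loxl4 moved in opposite directions, the make-up of the lysyl oxidase transcripts changed more than their sum. Summed over the 5 genes, the level was 93.4 ± 8.50 FPKM in high glucose and 58.9 ± 1.37 FPKM in control. FPKM lacks the scaling between libraries used for the fold changes, so part of this rise reflects scaling, and the sum was not tested. Loxl2 made up 75.9 ± 0.684% of that sum in high glucose and 36.0 ± 2.04% in control. Loxl4 made up 12.9 ± 0.282% in high glucose and 53.3 ± 1.78% in control. Within each library the ratio of Loxl2 to Loxl4 FPKM was 6.07, 5.71 and 5.87 in high glucose, against 0.748, 0.640 and 0.643 in control. Thus Loxl4 was the more abundant of the pair in every control library and Loxl2 in every high glucose library. Loxl1 held a similar share in both groups, at 8.96 ± 0.236% in high glucose and 9.75 ± 0.615% in control.

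**Figure D2:**
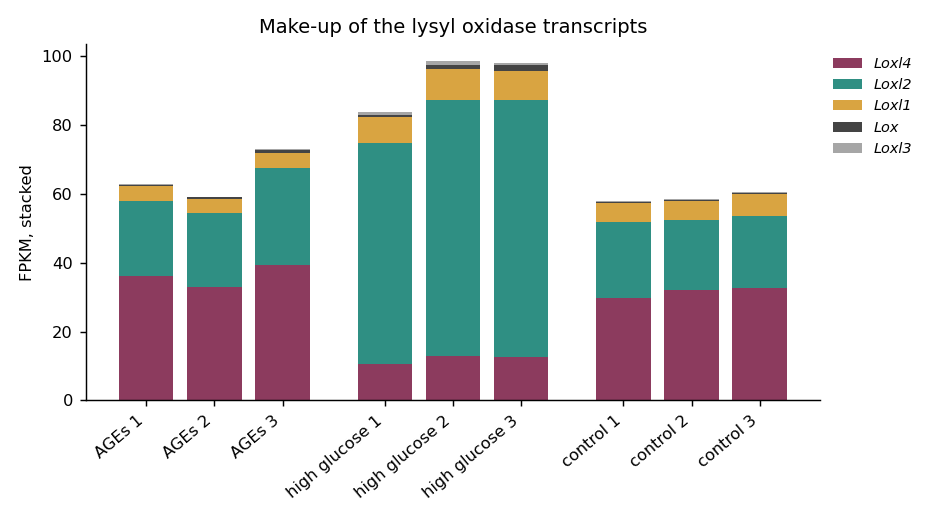
FPKM of the 5 lysyl oxidases stacked per library (y axis, FPKM). Loxl2 forms 75.2% to 76.6% of the stack in high glucose and 34.7% to 38.8% in AGEs and control, where Loxl4 forms the largest share.

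**Figure D3:**
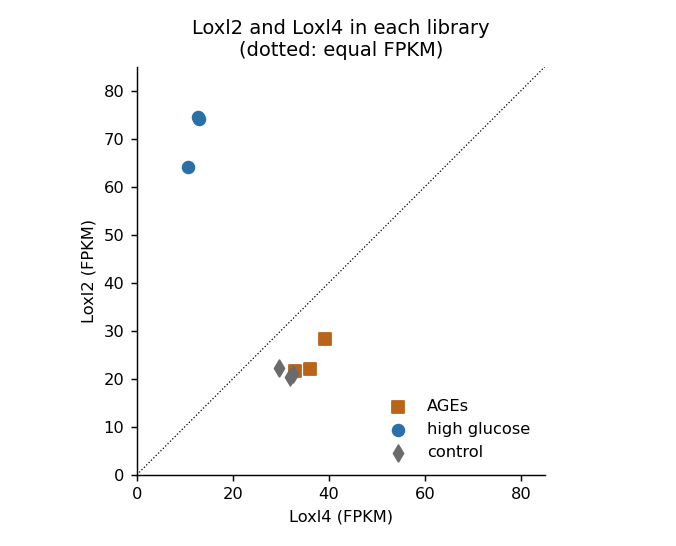
Loxl2 FPKM (y axis) against Loxl4 FPKM (x axis), a point per library, with a dotted line at equal levels. The 3 high glucose libraries lie above the line and the 6 AGEs and control libraries below it.

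Among the matricellular genes, Sparc encodes a calcium- and collagen-binding glycoprotein (chr11:55394500-55423183, minus strand). It had 73.0, 76.7 and 72.1 FPKM in high glucose, against 33.2, 33.0 and 37.6 FPKM in control. These values were tight within both groups and did not overlap. Sparc rose 1.89-fold by scaled counts (log2 fold change 0.92, SE 0.08, adjusted p = 2.94e-05) and was the most abundant member in high glucose, where its range overlapped that of Loxl2.

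Thbs1, whose product thrombospondin-1 can activate latent TGF-beta and binds CD47 (chr2:118111876-118127133, plus strand), had 28.2, 31.7 and 43.3 FPKM in high glucose, against 11.4, 11.2 and 10.6 FPKM in control. Control libraries lay close together while high glucose library 3 was well above the other two. Thbs1 rose 2.75-fold, a log2 fold change of 1.46 with an SE of 0.26 (adjusted p = 0.00186). Its relative Thbs2, an inhibitor of angiogenesis in mice (chr17:14665500-14694235, minus strand), was at 0 counts in 8 libraries, with 3 counts in high glucose library 1. Postn, which encodes the collagen-binding protein periostin (chr3:54361109-54391037, plus strand), had 4, 6 and 4 counts in high glucose, against 8, 8 and 12 counts in control. No difference in Postn was detectable at this depth (log2 fold change −1.04, SE 1.18, adjusted p = 0.535). Deposited counts of scarce genes often stood at 4, 8 or 12, so 1 count may not equal 1 read.

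Fn1 encodes fibronectin, a fibril-forming glycoprotein to which cells attach through integrins (chr1:71585520-71653175, minus strand). It had 27.4, 36.1 and 46.4 FPKM in high glucose, against 55.1, 47.9 and 60.8 FPKM in control. The highest high glucose library lay just under the lowest control library. Its decrease was 1.69-fold, with a log2 fold change of −0.76 (SE 0.19) and an adjusted p of 0.0102. With Sparc higher and Fn1 lower, the Sparc to Fn1 FPKM ratio was 2.66, 2.13 and 1.55 in high glucose, against 0.603, 0.689 and 0.618 in control.

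High glucose libraries also differed among themselves, by an amount that varied between genes. Lox, Thbs1 and Fn1 were each lowest in library 1 and highest in library 3, with highest-to-lowest ratios of 2.23, 1.53 and 1.69. Sparc and Loxl2 varied far less, with ratios of 1.06 and 1.16, although Loxl2 was also lowest in library 1 and highest in library 3. The Thbs1 to Fn1 FPKM ratio stayed between 0.878 and 1.03 in high glucose, against 0.174 to 0.234 in control. The order of levels in high glucose was Sparc (73.9 ± 2.45 FPKM) and Loxl2 (70.9 ± 5.94), which overlapped, then Fn1 (36.6 ± 9.51) and Thbs1 (34.4 ± 7.90), which also overlapped, then Loxl4 (12.1 ± 1.33) and Loxl1 (8.37 ± 0.745). Lox and Loxl3 followed and overlapped each other. Loxl2 ranked 758 among all genes by mean FPKM in high glucose and 2600 in control, and Loxl4 ranked 4520 in high glucose and 1763 in control.

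The high glucose libraries also differed in some markers of cell types other than podocytes. For scale, 39.3% of all genes tested were called in high glucose against control, 19.6% higher and 19.7% lower. Of the 17680 genes, 8344 had an unadjusted p under 0.05 by edgeR. Summed parietal epithelial markers (4 of 4 tested, 2 called higher) were 1286 to 1470 CPM in high glucose and 411 to 429 CPM in control. Most of that rise was Cd24a, at a mean of 1062 CPM in high glucose and 184 CPM in control. Pax2 was also called, at 39.9 CPM in high glucose and 4.58 CPM in control. Pax8 (236 and 220 CPM) and Cldn1 (16.9 and 12.8 CPM) were not called. These 4 genes were named after their values were seen. Summed tubular markers (4 of 5 tested, all 4 called higher, Slc34a1 at 0 in all libraries) were 667 to 799.7 CPM in high glucose and 202 to 216 CPM in control. Mesangial and fibroblast markers, from cells that make much interstitial matrix, summed to 21.3 to 25.5 CPM in high glucose and 21.7 to 24.3 CPM in control, with 0 of 5 tested called by edgeR (9 listed, 0 at an unadjusted p under 0.05) although their median log2 fold change was 0.93. Endothelial markers were at 1.05 CPM or less in every library, with 0 of 1 tested called by edgeR (5 listed, 0 at an unadjusted p under 0.05). Summed leukocyte markers were 80.2 to 88.4 CPM in high glucose and 63.0 to 73.2 CPM in control, with 1 called higher and 1 lower of 4 tested. The part of these shifts in the changes of the 10 genes was not tested.

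To ask whether AGEs altered the same genes, AGEs libraries were compared with control. None of the 9 members tested was called by edgeR, and over all genes 0.0848% were called (15 genes). At an unadjusted p under 0.05, Lox, Loxl1 and Loxl4 differed, against 12.4% of all genes. The same 3 members were those without overlap between AGEs and control libraries, against 19.5% of all genes. DESeq2 called 325 genes, among them Loxl1 as the only member.

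Loxl1 showed the smallest p of the members with AGEs and had a direction opposite to that in high glucose. It had 4.36, 4.01 and 4.40 FPKM in AGEs, against 5.44, 5.48 and 6.32 FPKM in control, without overlap. The log2 fold change was −0.41 (SE 0.11, unadjusted p = 0.00392, adjusted p = 0.262 by edgeR and 0.0456 by DESeq2). Its adjusted p ranged up to 0.652 over the other settings. As a share of lysyl oxidase FPKM, Loxl1 was 6.58 ± 0.479% in AGEs and 9.75 ± 0.615% in control.

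Lox had 0.337, 0.361 and 0.829 FPKM in AGEs, against 0.285, 0.253 and 0.197 FPKM in control. AGEs library 3 was more than double the other two, and all AGEs libraries were above control. The log2 fold change was 1.08 (SE 0.41, adjusted p = 0.359 by edgeR) and 0.51 without AGEs library 3 (adjusted p = 0.579). Loxl4 had 36.0, 33.0 and 39.2 FPKM in AGEs, against 29.6, 32.0 and 32.6 FPKM in control, just without overlap (log2 fold change 0.22, SE 0.10, adjusted p = 0.399 by edgeR).

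For the remaining members the AGEs and control libraries overlapped. Loxl2 had 22.0, 21.6 and 28.3 FPKM in AGEs, against 22.2, 20.4 and 21.0 FPKM in control (log2 fold change 0.20, SE 0.12). Sparc had 33.0, 31.3 and 35.1 FPKM in AGEs, against 33.2, 33.0 and 37.6 FPKM in control (log2 fold change −0.04, SE 0.08). The standard error for Sparc was the smallest of the members, so its estimate is the most precise. Fn1 had 73.7, 55.3 and 75.1 FPKM in AGEs, against 55.1, 47.9 and 60.8 FPKM in control (log2 fold change 0.34, SE 0.19). Thbs1 had 11.7, 7.73 and 17.2 FPKM in AGEs, against 11.4, 11.2 and 10.6 FPKM in control, so AGEs libraries lay on both sides of control. Its log2 fold change was 0.17 (SE 0.26), and −0.18 without AGEs library 3. Loxl3 had a log2 fold change of −0.04 (SE 0.26) and Postn of 0.19 (SE 1.13), with 15, 19 and 0 Postn counts in AGEs. Adjusted p-values by edgeR were 0.488 or more for these genes.

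AGEs library 3, which stood apart on the second principal component, was the highest of the AGEs libraries for 7 of the 9 members tested, the exceptions being Loxl3 and Postn. Summed over the 5 lysyl oxidases, the level was 65.0 ± 7.14 FPKM in AGEs and 58.9 ± 1.37 FPKM in control. Loxl2 made up 36.7 ± 1.94% of it in AGEs and 36.0 ± 2.04% in control, and Loxl4 55.5 ± 1.75% in AGEs and 53.3 ± 1.78% in control. The Loxl2 to Loxl4 FPKM ratio lay in a narrow range, at 0.611, 0.655 and 0.722 in AGEs, against 0.748, 0.640 and 0.643 in control. The order of levels in AGEs was Fn1 (values above), Loxl4 (36.0 ± 3.10 FPKM) and Sparc (33.1 ± 1.89), with overlap between Loxl4 and Sparc, then Loxl2, Thbs1, Loxl1, Lox and Loxl3 without overlap between neighbours.

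**Figure D4:**
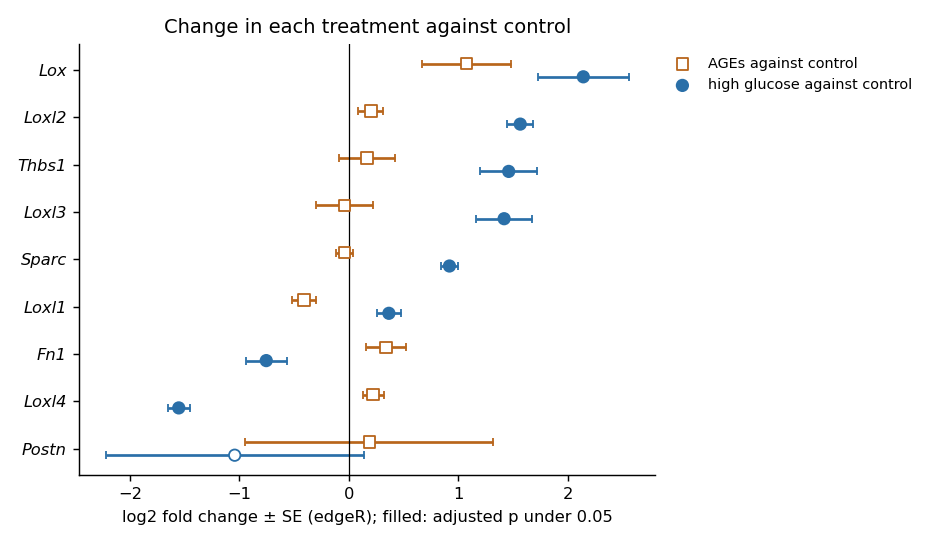
Log2 fold change ± SE (x axis) of the 9 members tested, by edgeR, for AGEs against control (squares) and high glucose against control (circles), which share the control libraries. Filled symbols have an adjusted p under 0.05. 8 members are filled for high glucose and 0 for AGEs.

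A direct comparison of AGEs with high glucose tested whether the 2 treatments differed. It shares the high glucose libraries with the comparison above, so its calls are not separate evidence for them. Of 9 members tested, 2 were higher in AGEs and 5 lower, while over all genes 39.9% were called, 19.7% higher and 20.2% lower. Loxl4 was 3.43-fold higher in AGEs (log2 fold change 1.78, SE 0.10, adjusted p = 2.5e-06) and Fn1 2.14-fold higher (log2 fold change 1.09, SE 0.19, adjusted p = 0.00141). The 5 lower genes had log2 fold changes of −1.37 for Loxl2 (adjusted p = 2.53e-05), −1.46 for Loxl3 (0.0017), −1.29 for Thbs1 (0.00347), −0.96 for Sparc (2.13e-05) and −0.78 for Loxl1 (0.000408). For these 7 genes the AGEs and high glucose libraries did not overlap, as for 53.8% of all genes.

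Lox was at 0.337, 0.361 and 0.829 FPKM in AGEs, against 0.752, 1.28 and 1.68 FPKM in high glucose. AGEs library 3 lay above high glucose library 1. The log2 fold change was −1.07 (SE 0.40, adjusted p = 0.0602 by edgeR), and it was called in 6 of 18 settings. These were without AGEs library 3 (−1.63, adjusted p = 0.00581), without high glucose library 1 (−1.31, adjusted p = 0.0362), by DESeq2 (−1.07, adjusted p = 0.0256), with a filter at a mean CPM of at least 1 (−1.09, adjusted p = 0.0491), and by limma on log2(FPKM + 1) (−0.56, adjusted p = 0.0236) and on log2(FPKM + 0.1) (−1.16, adjusted p = 0.0276). For Postn no difference was detectable (log2 fold change 1.23, SE 1.18, adjusted p = 0.453).

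Genes that act with these proteins were followed with 4 lists. The first held substrates of lysyl oxidases, the enzymes that modify and process collagen, and copper carriers. In high glucose against control, 11 of its 24 tested genes (35 listed) rose and 3 fell, and the median change was 0.45 on the log2 scale. Over all genes tested 19.6% were called higher and 19.7% lower, and the median change was 0.03. The 3 that fell belong to the prolyl 4-hydroxylase complex, which stabilises collagen in the endoplasmic reticulum. P4ha1 was at 155 ± 7.29 CPM in high glucose and 369 ± 3.85 CPM in control (log2 fold change −1.25, adjusted p = 2.21e-05), P4ha2 fell by 1.11 and P4hb by 0.91 on the log2 scale. Col1a1, a fibrillar collagen chain and classic lysyl oxidase substrate, rose 7.25-fold from a low base, at 3.27 ± 0.901 CPM in high glucose and 0.448 ± 0.217 CPM in control (adjusted p = 0.000521). Of the other fibrillar chains tested, Col5a1 was called higher (log2 fold change 0.52, adjusted p = 0.0407 by edgeR). The scarce Col1a2 (0.57, adjusted p = 0.674) and Col3a1 (0.42, adjusted p = 0.806) were not called. These chains were named after their values were seen. Both chains of the most widespread type IV collagen, Col4a1 and Col4a2, named after their values were seen, rose 2.37-fold and 2.52-fold (adjusted p = 0.00192 and 0.00101). Bmp1, the protease that releases active Lox from its precursor, was at 153 ± 34.1 CPM in high glucose and 124.7 ± 15.9 CPM in control (log2 fold change 0.30, adjusted p = 0.171). Eln, which encodes elastin, had at most 12 counts in a library and did not pass the filter. Without control library 1, only 9 genes of this list were called, 6 higher and 3 lower.

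Among 15 other matricellular genes tested (30 listed), 4 rose and 4 fell with high glucose, with a median of 0.06 (all genes: 19.6% higher, 19.7% lower, median 0.03). Spp1, which encodes osteopontin, rose 3.26-fold and was at 1162 ± 56.0 CPM in high glucose and 356 ± 29.8 CPM in control (adjusted p = 5.46e-06). Fstl1, a SPARC relative, rose 2.27-fold. Thbs3 rose by 0.40 on the log2 scale. Tgfbi had 56, 18 and 31 counts in high glucose, 4, 21 and 0 in AGEs and 0 in each control library. It passed the filter on low counts only through its high glucose libraries, so its count among the rises was tied to that filter. Lgals3, the galectin-3 gene, fell by 1.46 on the log2 scale. The other 3 that fell were CCN genes, Ccn4 by 1.03, Ccn2 (connective tissue growth factor) by 1.26 and Ccn1 by 0.42, the last with overlapping libraries. Thbs3, Tgfbi, Ccn2 and Ccn1 were named after their values were seen.

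Of 23 receptors and binding partners tested (26 listed), 13 rose and 3 fell with high glucose, with a median of 0.79, beside the same 19.6% higher, 19.7% lower and median of 0.03 over all genes. The transglutaminase gene Tgm2, whose product binds fibronectin, rose 3.06-fold to 231 ± 11.7 CPM in high glucose, against 75.5 ± 2.70 CPM in control (adjusted p = 3.31e-05). The 2 collagen receptor kinases of the list moved apart, Ddr1 by 1.25 and Ddr2 by −1.39 on the log2 scale. Itga5, the fibronectin receptor subunit, rose by 0.69 (adjusted p = 0.000754), while its partner subunit gene Itgb1 was at 697 ± 48.9 CPM in high glucose and 746 ± 45.5 CPM in control (log2 fold change −0.10, adjusted p = 0.356). Cd47, the thrombospondin receptor, fell by 0.50 (adjusted p = 0.0202), although its libraries overlapped. Calr, a chaperone that also binds thrombospondin-1 at the cell surface, was 4.65-fold lower at 3137 ± 232 CPM in high glucose and 14593 ± 864 CPM in control.

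In the list of TGF-beta and hypoxia regulators, 14 of 26 tested genes (28 listed) rose and 2 fell with high glucose, with a median of 0.65, again beside 19.6%, 19.7% and 0.03 over all genes. Tgfb1, the main TGF-beta ligand gene, was at 51.2 ± 0.558 CPM in high glucose and 30.1 ± 0.277 CPM in control (log2 fold change 0.77, adjusted p = 9.52e-05). Tgfb2 was scarce, at 2.37 ± 0.557 CPM in high glucose and 1.44 ± 0.389 CPM in control (adjusted p = 0.163). Smad3, which carries the TGF-beta signal to the nucleus, rose 3.70-fold, the inhibitory Smad6 4.51-fold, the co-receptor Tgfbr3 3.23-fold and the hypoxia-inducible factor gene Epas1 3.95-fold. The 2 that fell were Zeb1 and Zeb2, by 0.61 and 0.68 on the log2 scale with overlapping libraries, named after their values were seen.

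**Figure D5:**
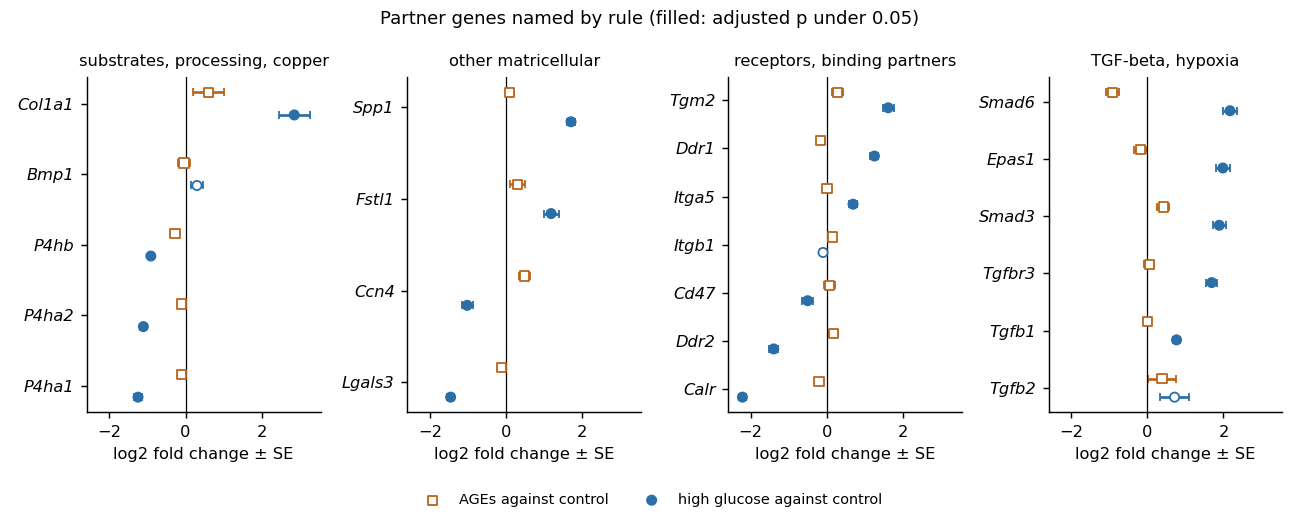
Log2 fold change ± SE by edgeR (x axis) of the partner genes named by rule in the 4 lists, for AGEs against control (squares) and high glucose against control (circles), which share the control libraries. Filled symbols have an adjusted p under 0.05. Open circles are Bmp1, Itgb1 and Tgfb2, and 0 squares are filled.

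None of the 88 partner genes tested was called for AGEs against control by edgeR, with 16 at an unadjusted p under 0.05, while DESeq2 called 2, and 1 was called by edgeR without control library 3. Over all genes tested, edgeR called 0.0848% in that comparison, and 12.4% had an unadjusted p under 0.05. The medians of the 4 lists were 0.04, 0.13, 0.11 and 0.04 on the log2 scale, against −0.00 over all genes tested. Against high glucose, AGEs libraries had 3 genes higher and 8 lower of 24 in the first list, 5 and 3 of 15 among other matricellular genes, 5 and 10 of 23 among receptors, and 2 and 14 of 26 among the regulators. Medians of log2 fold change were −0.34, 0.11, −0.68 and −0.43, against −0.02 over all genes tested, of which 19.7% were called higher and 20.2% lower. In the first list, 7 were called without AGEs library 1, 3 higher and 4 lower. Spp1 was at 379 ± 54.3 CPM in AGEs and 1162 ± 56.0 CPM in high glucose, and Itgb3, an integrin subunit that binds fibronectin and other RGD proteins, was at 3.15 ± 0.857 CPM in AGEs and 20.2 ± 2.89 CPM in high glucose.

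The gene closest to each member in pattern was found from log2 CPM over the 9 libraries, each gene centred on its own mean, by root mean square distance. This describes likeness over libraries that fall mostly into high glucose and the rest. For Loxl2 the nearest was Tuba1a, a tubulin gene, at a distance of 0.0588. For Loxl4 it was Atf6, a sensor of the endoplasmic reticulum, at 0.0879. Sparc lay nearest to Parvb (0.0510), Loxl1 to Selenon (0.0621), Fn1 to Abcc4 (0.139), Thbs1 to Ltbp1 (0.163), Loxl3 to Itpkb (0.174), Lox to Itga2 (0.238) and the sparsely counted Postn to Gna15 (0.401). Among the members themselves, Loxl2 and Thbs1 were the closest pair at 0.227, but 216 other genes were closer to Loxl2 than Thbs1 was.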

How the data were processed

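RNA of 9 libraries was sequenced after TRIzol extraction and reverse transcription with SuperScript II, per the labels' protocols. Per the file headers, the authors deposited counts and FPKM of each gene side by side for all libraries, in 1 table. A count of 0 was deposited as 0.0001 FPKM and was read here as 0. Cutadapt 1.9, FastQC and GRCm38 are named in the submitters' processing notes. No source used here gives the aligner, counter, annotation or strand setting, so reads of overlapping opposite-strand genes are uncertain. Gene positions are those of the deposited table.

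Counts were tested with edgeR 4.0.16 (R 4.3.3): filterByExpr by group (17680 genes left), TMM scaling, quasi-likelihood fit of all 9 libraries with 3 group means, two-sided, Benjamini-Hochberg over all genes tested. The standard error was the absolute log2 fold change divided by the square root of F. CPM used the TMM factors (0.935 to 1.10). Alternatives used DESeq2 1.42.0, limma 3.58.1 on log2(FPKM + 1) and log2(FPKM + 0.1), other filters and scaling, 2-group fits, a replicate block and leaving out each library. The procedure was run on simulated counts with far fewer changed genes than were called in high glucose. That run cannot show how often calls are wrong in these data.

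Replicate libraries differed by more than sampling noise (chi-square per degree of freedom 47.6 to 110), so each counted once. That spread cannot show whether they were separate cultures. Members, lists and tests were chosen with earlier results of these data known. Besides the 10 members, named genes were up to 4 called per list and comparison by smallest p (a selection of them is given for AGEs against high glucose), a fixed set (Bmp1, Eln, Col1a1, Tgfb1, Tgfb2, Itga5, Itgb1, Cd47), and the nearest gene in pattern to each member.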

Additional observations from a re-analysis of the deposited data

How the results depend on the processing

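For the members, 435 of 454 values under the alternatives kept the direction and the side of the threshold that they had in the comparisons above. For high glucose against control, 8 members were called under every alternative that kept all libraries, and 7 to 8 with a library left out. The count of genes called for AGEs against control was 15 by edgeR, 325 by DESeq2, 5 with the replicate block and 10 to 21 with a library left out. Members called there were 0, with 1 by DESeq2, and partner genes called were 0, with 2 by DESeq2 and 0 to 1 with a library left out. The cause of these differences was not tested. Directions that turned were all of uncalled values for AGEs against control. Postn (0.19) went to −0.23 with the replicate block, and with a library left out ranged from −0.36 (without AGEs library 2) to 0.77, with −0.10 without AGEs library 1. Loxl3 (−0.04) ranged from −0.16 to 0.061 with a library left out, above 0 without control library 3 or AGEs library 2. Sparc (−0.04) ranged from −0.10 to 0.026, above 0 without the same libraries. Thbs1 (0.17) ranged from −0.18 (without AGEs library 3) to 0.41. Same-numbered libraries did not deviate together (correlations −0.067 to 0.084), so numbers were not taken as pairs, and the replicate block moved the other counts of calls by less than 1.5 times. On log2(FPKM + 1), 5237 genes were higher and 2400 lower in high glucose, against 3466 and 3480 by edgeR. On log2(FPKM + 0.1) the median of all genes shifted by 0.17 for high glucose and −0.18 for AGEs against high glucose, so that small changes are relative to it. For AGEs against high glucose the partner genes split into 11 higher and 48 lower with limma, against 15 and 35 by edgeR. Depth limits Postn and Thbs2, with 76 and 3 counts over all libraries.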
